A study of Mus musculus with 19 samples.

Results

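The genes described here are the sterol regulatory element-binding protein (SREBP) programme of cholesterol and fatty acid synthesis, followed in Kupffer cells, macrophages that live in the liver sinusoids. The set is a named list of 37 mouse genes for sterol synthesis, fatty acid synthesis, elongation and desaturation, glycerolipid synthesis and SREBP control. It was matched by symbol to the deposited table of 33919 gene identifiers. Of the 37 genes, 36 had a row in the table and 1 was not analysed here. All 36 were among the 14875 genes tested. RNA came from 19 libraries of Kupffer cells of female C57BL/6 mice in 3 groups. Chow_EmKCs (n = 6) were the embryo-derived subset from chow-fed mice. MCD_EmKCs (n = 6) were the same subset after 4 weeks of a diet that lacks methionine and choline (MCD), a model of fatty liver with inflammation. MCD_MoKCs (n = 7) were the monocyte-derived subset after the same 4 weeks of that diet. Both subsets were CLEC2+, and TIMD4 on the cell surface (present on EmKCs, absent from MoKCs) separated them, so that origin rests on the sort. Age is not given in the sources used here, and they do not tell which libraries came from different animals. The p-values therefore cover the spread among these libraries, which may be technical.

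SREBPs are made as membrane proteins of the endoplasmic reticulum, where SCAP escorts them and the INSIG proteins hold the complex back while sterols are plentiful. When membrane sterols fall, SCAP carries the SREBP to the Golgi, proteases free its transcription factor domain, and that domain raises the genes of lipid synthesis. SREBP2, from Srebf2, acts mostly on the sterol genes, and SREBP1c, from Srebf1, mostly on fatty acid and glycerolipid genes, whose transcription in macrophages also answers to the liver X receptors and oxysterols.

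The libraries held 11642240 to 30983487 reads and 14643 to 16847 genes with a read. Timd4, the marker of the sort, ranged from 8423 to 13558 normalised reads on chow. In MCD_EmKCs it ranged from 6584 to 8501, and in MCD_MoKCs from 258.3 to 743.3. The 8 Kupffer cell markers, all with reads in every library, together took 2.41 to 3.11% of the reads in Chow_EmKCs, 1.8 to 2.37% in MCD_EmKCs and 0.65 to 0.882% in MCD_MoKCs. Within the list, Marco had medians of 5108, 21723 and 1704 normalised reads in the 3 groups in that order, and Clec1b 6360, 7097 and 4738. The other markers had a lower median in MCD_EmKCs than in Chow_EmKCs, such as Clec4f at 211824 in Chow_EmKCs and 158092 in MCD_EmKCs. The 10 hepatocyte markers took 0.0232 to 0.0655%, 0.00307 to 0.0174% and 0.00328 to 0.00996%, with none of the 10 at 0 throughout any group, so that the hepatocyte share was higher in every Chow_EmKCs library than in any MCD library. Mitochondrial genes took 0.511 to 1.05% of the reads in Chow_EmKCs, 0.155 to 0.317% in MCD_EmKCs and 0.244 to 0.729% in MCD_MoKCs. MCD_EmKCs 1 and 2, and MCD_MoKCs 1, 2 and 3, lay apart from the rest of their groups on principal components of all genes, and calls that need them are named below. In bulk RNA, fewer expressing cells and less RNA per cell cannot be told apart.

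Promoter sequence was at hand for 27 of the 36 genes, as RefSeq windows of 300 bases (250 before and 50 after a transcript's start, GRCm38.p6, the mm10 build). SREBPs bind weakly alone and work beside NF-Y, which binds CCAAT, and they can also bind the E-box CACGTG. On either strand, CCAAT was in a window of 22 of these 27 genes (81.5%), against 41.1% of 27025 genes and 37.4% of 32851 windows. All 12 sterol synthesis genes with a window held it, as did 6 of the 10 fatty acid and glycerolipid genes. CACGTG was in 6 of 27 (22.2%), against 8.09% of all genes, and the sterol regulatory element searched as TCACNCCAC was in 0 of 27, against 1.44%. At so low a share, 0 of 27 does not set these genes apart from all genes. Other forms of the element were not searched. The 4 stretches that follow lie upstream of 4 genes whose levels differed between groups: the feedback gene Insig1, the regulator Srebf2, the acetyl-CoA producer Acly, which was lower in MCD_MoKCs, and Agpat2 of glycerolipid synthesis. Each is written 5′ to 3′ on the gene's own strand and ends before any annotated exon, with the E-box, the NF-Y box CCAAT or the complement of that box, ATTGG, in capitals.
Insig1, chr5:28071212-28071362, plus strand: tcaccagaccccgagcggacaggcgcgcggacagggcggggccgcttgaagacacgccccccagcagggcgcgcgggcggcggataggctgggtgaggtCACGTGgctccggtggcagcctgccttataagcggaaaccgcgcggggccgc
Srebf2, chr15:82147069-82147180, plus strand: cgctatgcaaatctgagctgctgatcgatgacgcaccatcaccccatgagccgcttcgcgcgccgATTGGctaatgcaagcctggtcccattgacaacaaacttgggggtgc
Acly, chr11:100528001-100528200, minus strand: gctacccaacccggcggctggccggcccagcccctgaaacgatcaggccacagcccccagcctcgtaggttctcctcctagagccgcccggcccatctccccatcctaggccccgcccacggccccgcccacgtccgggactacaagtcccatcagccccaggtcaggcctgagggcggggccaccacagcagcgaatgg
Agpat2, chr2:26604418-26604617, minus strand: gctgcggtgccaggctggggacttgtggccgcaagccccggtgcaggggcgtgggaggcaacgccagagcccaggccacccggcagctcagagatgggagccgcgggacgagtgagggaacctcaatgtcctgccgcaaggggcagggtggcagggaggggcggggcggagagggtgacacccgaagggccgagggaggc
The E-box of Insig1 starts 101 bases before the RefSeq start, and the ATTGG of Srebf2 starts 135 bases before it. The stretches of Acly and Agpat2 hold none of the 3 motifs. A match is a description of the letters, and no binding was measured.

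The 36 genes spanned a wide range of levels. Set per kilobase of annotated exon and averaged over the 19 libraries, Acly was highest at 978 normalised reads per kilobase. The very-long-chain fatty acid elongase Elovl1 followed at 879, then Srebf1 at 469.8, the stearoyl-CoA desaturase Scd1 at 379 and the mevalonate pathway decarboxylase Mvd at 371. Most of the sterol branch lay lower, with Fdps at 69.9, Fdft1 at 32.3, Sqle at 28.8 and Idi1 at 18.2 per kilobase. The lowest was Hsd17b7, a sterol reductase, at 3.53 per kilobase, and it was listed at 0 in 1 Chow_EmKCs, 2 MCD_EmKCs and 2 MCD_MoKCs libraries. Fads2, a desaturase of polyunsaturated fatty acids, was likewise listed at 0 in 1, 2 and 1 libraries, so fold changes of both have wide errors.

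**Figure D1:**
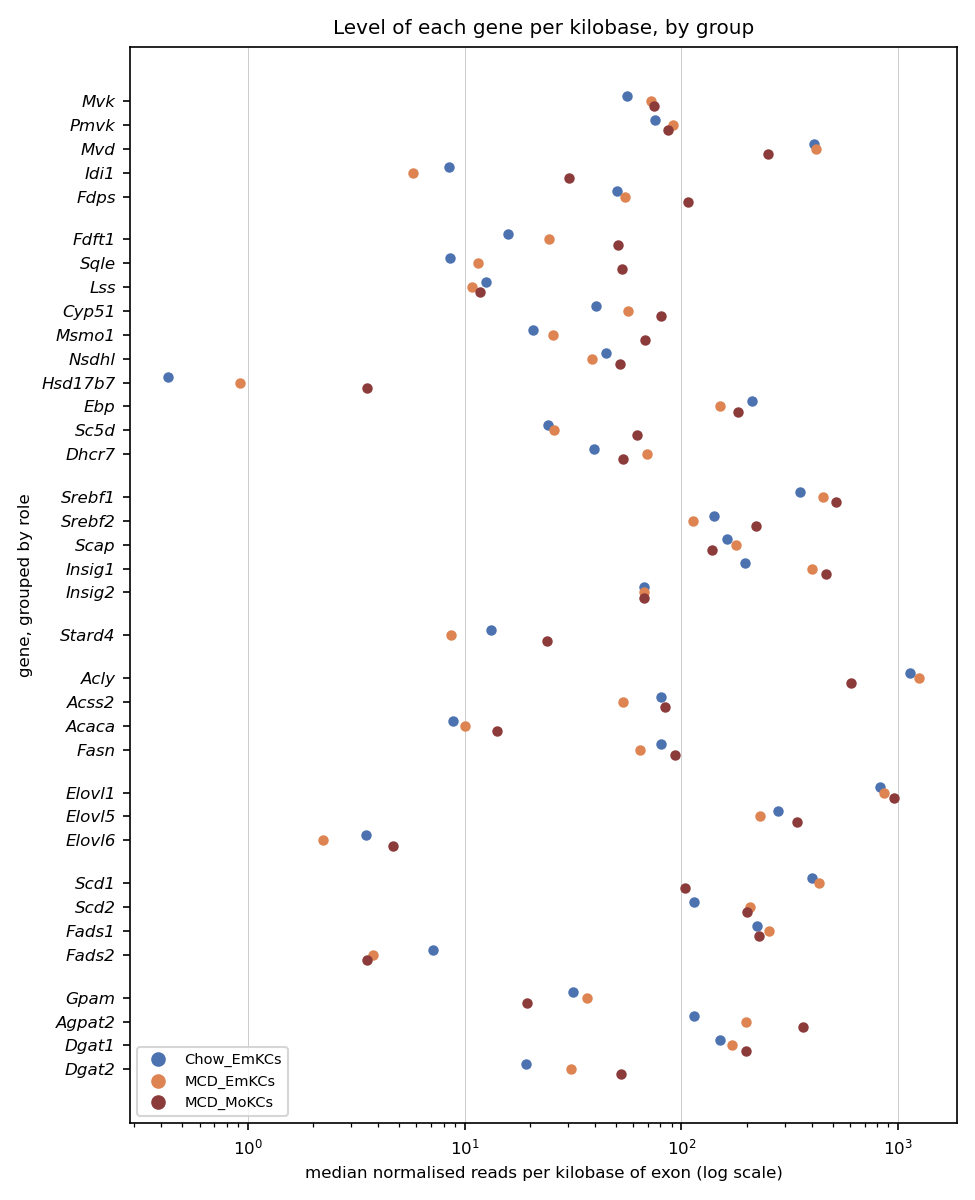
Median level of each of the 36 genes in each group, in normalised reads per kilobase of exon on a log axis, grouped by role. Acly and Elovl1 sit at the upper end and Hsd17b7 at the lower end, and the MCD_MoKCs point lies left of both other points for Acly and Scd1 and right of both for Sqle, Fdps and Idi1.

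In embryo-derived cells the diet went with changes in few of these genes. Insig1, the feedback anchor of SCAP, and Scd2, a stearoyl-CoA desaturase, rose in MCD_EmKCs against Chow_EmKCs, by 1.04 (SE 0.25) and 0.99 (SE 0.24) on the log2(normalised reads + 1) scale used for every difference here. These were 2 of 36 genes called higher (5.56%), where 2.5% of all genes tested were called higher, and 0 of 36 were called lower, where 1.58% of all genes were. The test was limma's, with Benjamini-Hochberg adjustment over all genes and a threshold of 0.05. At an unadjusted p under 0.05, 4 of 36 genes were higher and 2 lower, where 1219 and 1174 of the 14875 genes tested were. Both edgeR and DESeq2 on the recovered reads also called 2 higher and 0 lower. Over all genes edgeR called 2.45% higher and 1.25% lower, and DESeq2 3.89% and 2.19%. The median difference of the 36 was 0.14, against -0.04 over all genes, and 23 of 36 differences were above 0, against 46.9% of all genes. All 15 sterol synthesis genes missed the threshold, with differences from -0.81 (Idi1) to 1.23 (Hsd17b7), and at an unadjusted p under 0.05 only 1 of them differed (Ebp, lower). For no gene of the set did the 6 MCD_EmKCs and 6 Chow_EmKCs libraries separate fully, as 1.55% of all genes did upward and 1.41% downward. The hepatocyte share of reads differed between the same groups, as given above, and its part in these results was not tested.

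Within the MCD diet, monocyte-derived cells had higher levels of some sterol genes and lower levels of 2 fatty acid genes than embryo-derived cells. Against MCD_EmKCs, Sqle, Idi1, Fdps, Srebf2 and Acss2 rose, and Acly and Scd1 fell. That is 5 of 36 called higher (13.9%), where 5.64% of all genes were, and 2 of 36 called lower (5.56%), where 4.9% of all genes were, a share near the background. The median difference of the 36 was 0.50, against 0.02 over all genes, and 27 of 36 differences were above 0, against 51.4% of all genes. Among the 15 sterol synthesis genes, 12 differences were above 0, 3 were called higher, and their median was 0.62. Only Scd1 separated the groups fully among the 36, in the downward direction, where 2.25% of all genes did so. Upward, 0 of 36 did, against 2.62% of all genes. The 7 T and NK cell markers took 0.00167 to 0.00302% of the reads in MCD_MoKCs and 5.73e-05 to 0.00083% in MCD_EmKCs, the 5 platelet markers 0.00848 to 0.0242% and 0.00325 to 0.00757%, and the hepatocyte shares overlapped. Within the platelet list the difference lay in Pf4, with medians of 875.1 normalised reads in MCD_EmKCs and 2637 in MCD_MoKCs. Itga2b had medians of 15.35 and 13.14, Ppbp 0 and 4.747, and Gp9 and Gp1bb 0 in both groups. The part of the marker shares in the differences was not tested.

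Monocyte-derived cells on the diet and embryo-derived cells on chow differed in both diet and subset, which cannot be told apart in that comparison. It shares its groups with the comparisons above, so its values stand beside them and are no separate evidence. Sqle, Agpat2, Insig1, Fdft1, Msmo1, Sc5d, Scd2, Fdps and Srebf2 rose and Acly and Scd1 fell. These are 9 of 36 called higher (25%), where 8.68% of all genes were, and 2 of 36 called lower (5.56%), where 8.08% of all genes were. The median difference was 0.47, against -0.01 over all genes, and 27 of 36 differences were above 0, against 49.4% of all genes. Fully separated upward were 3 of the 36 (Insig1, Agpat2 and Cyp51), or 8.33%, where 4.48% of all genes were, and 1 downward (Scd1), where 3.5% were. Over the 3 comparisons, 13 of the 36 genes (36.1%) were called at least once, where 20.4% of all genes were, and 23 never.

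**Figure D2:**
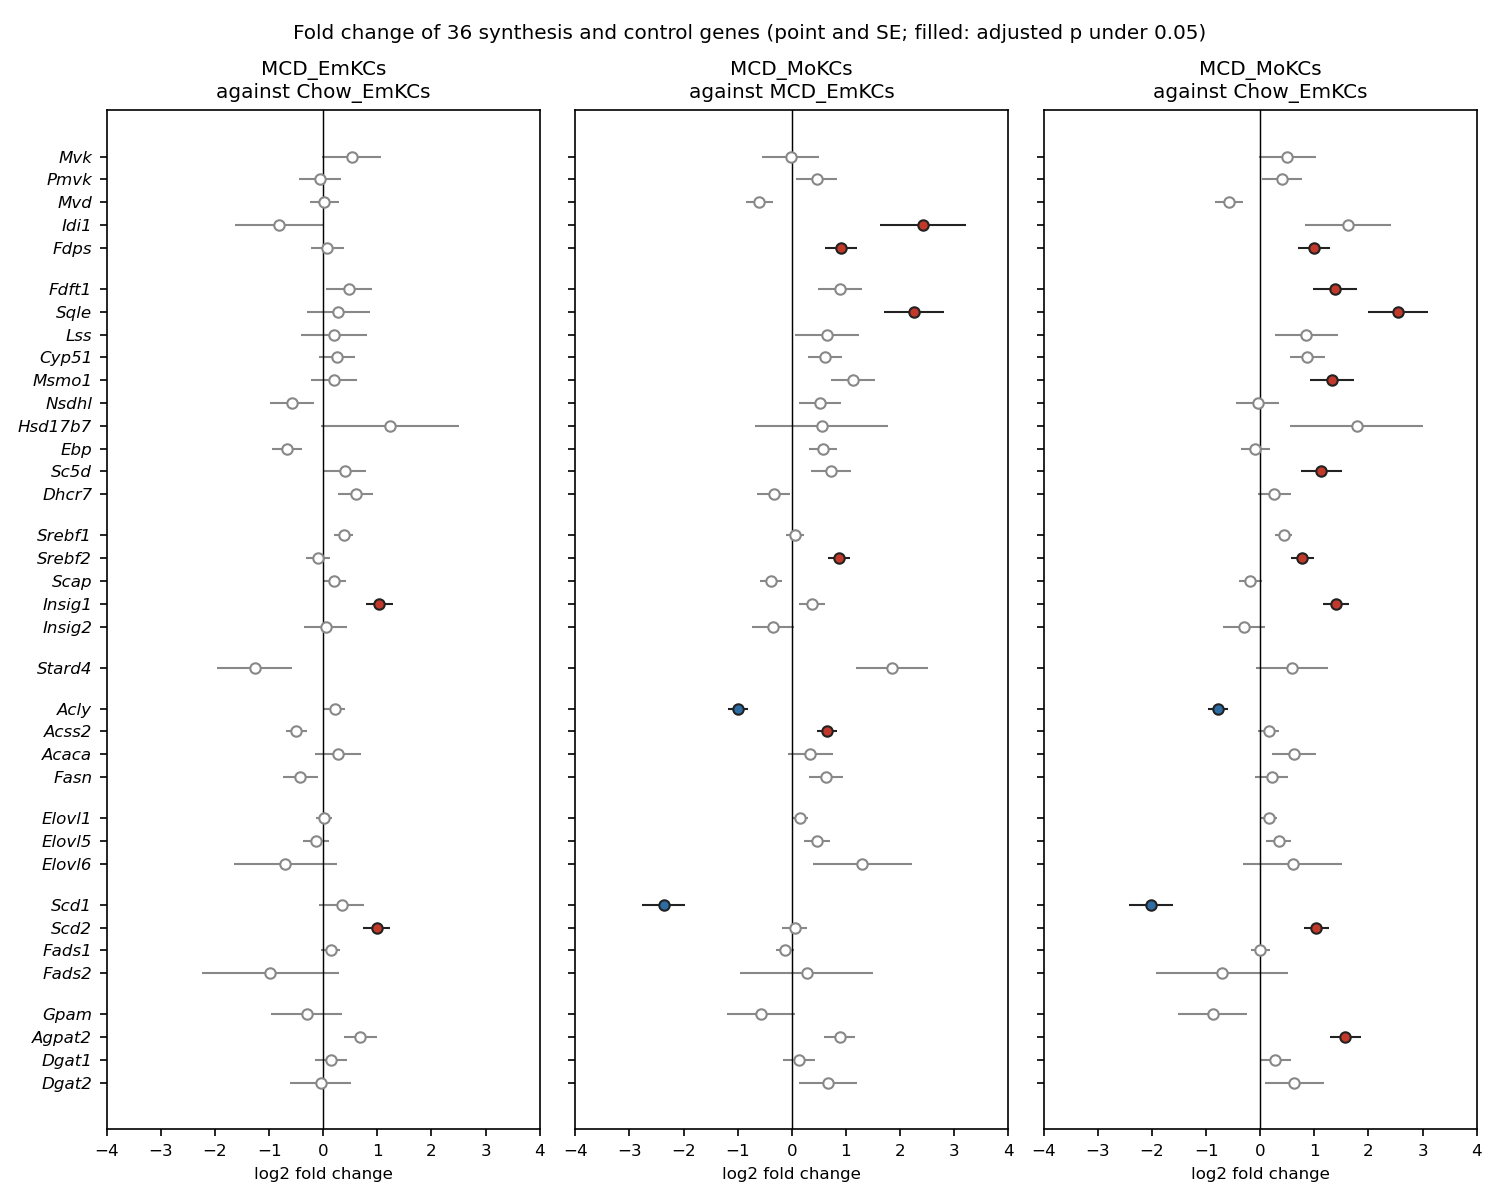
Fitted log2 difference of the 36 genes in each of the 3 comparisons, as a point with its standard error, ordered by role. Filled points passed an adjusted p of 0.05: 2 genes in MCD_EmKCs against Chow_EmKCs, 7 in MCD_MoKCs against MCD_EmKCs and 11 in MCD_MoKCs against Chow_EmKCs, with blue for lower (Acly and Scd1) and red for higher.

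Among the control genes, Insig1 and Srebf2 changed and Srebf1, Scap and Insig2 did not pass the test in any comparison. Insig1 (ENSMUSG00000045294, chromosome 5, 28071363 to 28078662, mm10), itself a target of SREBP, had a lowest, median and highest level of 255, 607 and 793 normalised reads in Chow_EmKCs. The same values were 672, 1238 and 1633.5 in MCD_EmKCs and 1157, 1433 and 1667 in MCD_MoKCs. Every MCD_MoKCs library thus lay above every Chow_EmKCs library, and the lowest MCD_EmKCs libraries reached into the chow range. Insig1 rose by 1.04 (SE 0.25, limma adjusted p = 0.0126) with diet in EmKCs, where 6 of 6 libraries were above the chow median, and by 1.41 (SE 0.24, adjusted p = 8.19e-05) in MCD_MoKCs against Chow_EmKCs. Between MCD_MoKCs and MCD_EmKCs it differed by 0.37 (SE 0.24, 95% interval -0.10 to 0.83, adjusted p = 0.381).

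Srebf2 (ENSMUSG00000022463, chromosome 15, 82147181 to 82205379), which encodes the sterol-responsive SREBP2, stood at a lowest, median and highest level of 578, 1019.5 and 1356 normalised reads in Chow_EmKCs. It was at 701, 811 and 1323 in MCD_EmKCs and at 1316, 1579 and 2355.5 in MCD_MoKCs. The lowest MCD_MoKCs library was just under the highest library of either EmKC group, and the other 6, from 1449.9 upward, were above every EmKC library. Srebf2 rose by 0.87 (SE 0.21, limma adjusted p = 0.0058) against MCD_EmKCs and by 0.78 (SE 0.21, adjusted p = 0.00919) against Chow_EmKCs, with 7 of 7 libraries above the median of each. Diet in EmKCs went with a difference of -0.10 (SE 0.22, adjusted p = 0.882). Without MCD_MoKCs 1, 2 and 3, the 2 Srebf2 differences were 0.70 (adjusted p = 0.0952) and 0.60 (adjusted p = 0.109), past the threshold in neither.

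Srebf1 (chromosome 11, 60199089 to 60222581), whose products include SREBP1c, was the most abundant control gene per kilobase. Its lowest, median and highest levels were 1697.5, 1979 and 3232 normalised reads in Chow_EmKCs, 2494, 2538 and 3375 in MCD_EmKCs, and 2159, 2912 and 3699.7 in MCD_MoKCs. Apart from Chow_EmKCs 5, at 3232, every chow library lay below every MCD_EmKCs library, and the ranges of the 2 MCD groups overlapped. Its differences were 0.38 (SE 0.17, limma adjusted p = 0.261) with diet, 0.05 (SE 0.16, adjusted p = 0.89) between the MCD subsets and 0.43 (SE 0.16, adjusted p = 0.0725) between MCD_MoKCs and Chow_EmKCs. The last of these passed the threshold without Chow_EmKCs 5 (adjusted p = 0.0156) and without MCD_MoKCs 6 (adjusted p = 0.0376). Scap, the escort, had medians of 1204, 1332.5 and 1031 normalised reads in the 3 groups in the same order, and its difference between the MCD subsets was -0.38 (SE 0.21, adjusted p = 0.277). Insig2, the second anchor, had medians of 233, 232 and 232 normalised reads.

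**Figure D3:**
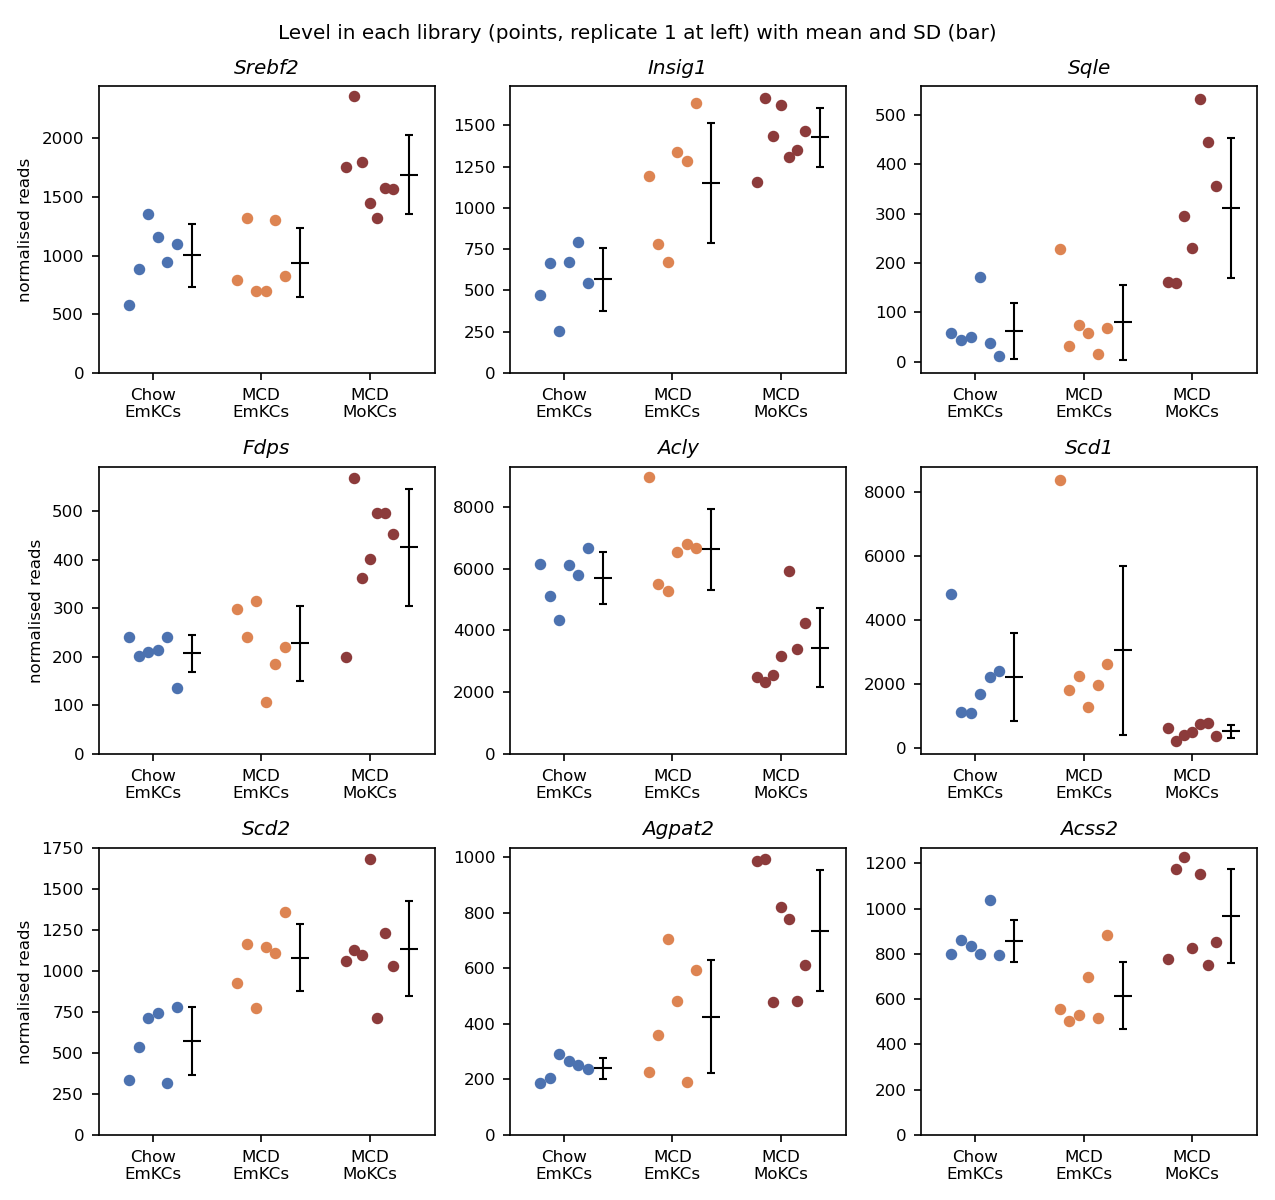
Level of 9 genes called in at least 1 comparison in each library (points, in order of replicate number) with the group mean and SD (bar), in normalised reads. The 7 MCD_MoKCs libraries lie between 211 and 762 for Scd1, under every EmKC library, and between 1157 and 1667 for Insig1, above every Chow_EmKCs library.

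In the mevalonate and isoprenoid steps, which make the building blocks of sterols, Fdps was called higher in MCD_MoKCs against both EmKC groups. Idi1 was called higher in MCD_MoKCs against MCD_EmKCs only. The kinases Mvk and Pmvk and the decarboxylase Mvd passed no test. Farnesyl diphosphate synthase, Fdps (ENSMUSG00000059743, chromosome 3, 89093588 to 89101959), had a lowest, median and highest level of 135, 212 and 241 normalised reads in Chow_EmKCs. It had 107, 230.3 and 315 in MCD_EmKCs and 199, 453 and 567.7 in MCD_MoKCs. MCD_MoKCs 1, at 199, lay inside the EmKC range, and the other 6 libraries, from 362 upward, lay above every EmKC library. Fdps rose by 0.92 (SE 0.29, limma adjusted p = 0.0452) against MCD_EmKCs and by 0.99 (SE 0.29, adjusted p = 0.0186) against Chow_EmKCs. The former call is close to the threshold and was lost in 14 of 19 fits that left out 1 library, and the latter without Chow_EmKCs 6 (adjusted p = 0.0536).

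Isopentenyl diphosphate isomerase, Idi1 (ENSMUSG00000058258, chromosome 13, 8885501 to 8892451), was a low gene, at 13.7, 29.7 and 67.7 normalised reads (lowest, median, highest) in Chow_EmKCs. It was at 0, 20.3 and 86.7 in MCD_EmKCs and at 33.3, 106 and 270.4 in MCD_MoKCs. All 7 MCD_MoKCs libraries were above the MCD_EmKCs median, and the ranges overlapped. The fitted difference from Chow_EmKCs was 1.62 (SE 0.80, limma adjusted p = 0.184), not called. The difference from MCD_EmKCs was 2.43 (SE 0.80, limma adjusted p = 0.04996), at the threshold. That call was lost in 15 of 19 fits that left out 1 library, and with edgeR (adjusted p = 0.156) and DESeq2 (adjusted p = 0.0595). Without MCD_MoKCs 1, 2 and 3 the difference was 2.85 (adjusted p = 0.0808). Mvd (chromosome 8, 122433601 to 122443422) had medians of 758, 776 and 464 normalised reads in Chow_EmKCs, MCD_EmKCs and MCD_MoKCs. All 7 MCD_MoKCs libraries were below both EmKC medians, with differences of -0.60 (SE 0.26, adjusted p = 0.153) and -0.58 (SE 0.26, adjusted p = 0.137).

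From squalene to cholesterol, 1 of 10 genes (10%) was called higher in MCD_MoKCs against MCD_EmKCs, where 5.64% of all genes were, and 4 of 10 (40%) against Chow_EmKCs, where 8.68% were. Squalene epoxidase, Sqle (ENSMUSG00000022351, chromosome 15, 59315077 to 59331192), which performs an oxygen-dependent and rate-limiting step, showed the largest called difference of the set, in MCD_MoKCs against Chow_EmKCs. Its lowest, median and highest levels were 12.8, 47.5 and 172.5 normalised reads in Chow_EmKCs, 16.6, 63.7 and 228 in MCD_EmKCs and 159, 294 and 531 in MCD_MoKCs. Apart from Chow_EmKCs 4 and MCD_EmKCs 1, every EmKC library was below every MCD_MoKCs library. Sqle rose by 2.27 (SE 0.56, limma adjusted p = 0.0072) against MCD_EmKCs and by 2.55 (SE 0.56, adjusted p = 0.00152) against Chow_EmKCs.

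Squalene synthase, Fdft1 (ENSMUSG00000021273, chromosome 14, 63145150 to 63179578), had medians of 66.9, 103.9 and 216 normalised reads in Chow_EmKCs, MCD_EmKCs and MCD_MoKCs, with ranges that overlapped. It rose by 1.38 (SE 0.41, limma adjusted p = 0.0181) in MCD_MoKCs against Chow_EmKCs, and without MCD_MoKCs 1, 2 and 3 the difference was 1.22 (adjusted p = 0.0983). The methylsterol oxidase Msmo1 (ENSMUSG00000031604, chromosome 8, 64718139 to 64733792) ran from 56.2 to 494 in Chow_EmKCs, from 96.4 to 251 in MCD_EmKCs and from 208 to 528 in MCD_MoKCs. Chow_EmKCs 6, at 494, stood far above the other chow libraries, whose highest was 187. Msmo1 rose by 1.33 (SE 0.41, adjusted p = 0.0241) against Chow_EmKCs, a call that edgeR (adjusted p = 0.113) and DESeq2 (adjusted p = 0.0655) did not make and that was lost without Chow_EmKCs 3, 4 or 5 or MCD_MoKCs 5. The sterol desaturase Sc5d (ENSMUSG00000032018, chromosome 9, 42251595 to 42264256) had medians of 118, 125 and 302 normalised reads in the 3 groups. It rose by 1.13 (SE 0.37, adjusted p = 0.0352) against Chow_EmKCs, lost in 9 of 19 fits that left out 1 library. Against MCD_EmKCs, Fdft1, Msmo1 and Sc5d were not called. Their differences were 0.90 (SE 0.41, limma adjusted p = 0.177), 1.14 (SE 0.41, adjusted p = 0.0772) and 0.73 (SE 0.37, adjusted p = 0.242).

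The lanosterol demethylase Cyp51 was at 132 to 266 normalised reads in Chow_EmKCs and 282 to 433 in MCD_MoKCs. These ranges did not overlap, and the difference of 0.87 (SE 0.32) had a limma adjusted p of 0.0615. Lanosterol synthase (Lss), Nsdhl, Hsd17b7, the sterol isomerase Ebp and Dhcr7, which makes the last step to cholesterol, passed in no comparison. Ebp had medians of 490.5, 348 and 422 normalised reads in the 3 groups, and all 6 MCD_EmKCs libraries were below the chow median (difference -0.67, SE 0.28, adjusted p = 0.213). Stard4, a carrier of cholesterol between membranes, had medians of 73.9, 48.3 and 135 normalised reads. Its difference between the MCD subsets was 1.85 (SE 0.66, adjusted p = 0.0749), with 7 of 7 MCD_MoKCs libraries above the MCD_EmKCs median.

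The enzymes that supply and build fatty acids did not move together. ATP citrate lyase, Acly (ENSMUSG00000020917, chromosome 11, 100476353 to 100528000), which makes cytosolic acetyl-CoA from citrate, had a lowest, median and highest level of 4338, 5964.5 and 6667 normalised reads in Chow_EmKCs. It had 5292, 6604 and 8953.5 in MCD_EmKCs and 2319.6, 3181 and 5919 in MCD_MoKCs. MCD_MoKCs 5, at 5919, reached into the EmKC range, and the other 6 libraries, up to 4230.5, were below every EmKC library. Acly fell by 1.00 (SE 0.18, limma adjusted p = 0.000432) against MCD_EmKCs, under every alternative tried, and the difference from Chow_EmKCs was -0.79 (SE 0.18, adjusted p = 0.0028). Without MCD_MoKCs 1, 2 and 3 the latter difference was -0.48 (adjusted p = 0.0916).

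Acss2 (ENSMUSG00000027605, chromosome 2, 155517948 to 155585724) makes acetyl-CoA from acetate. Its lowest, median and highest levels were 796, 818 and 1037.5 normalised reads in Chow_EmKCs, 504, 545 and 883 in MCD_EmKCs and 749, 854 and 1229.5 in MCD_MoKCs. MCD_EmKCs held the low values, with 5 of 6 libraries below every library of the other groups. Acss2 rose by 0.65 (SE 0.19, limma adjusted p = 0.0231) in MCD_MoKCs against MCD_EmKCs, and its difference was -0.50 (SE 0.19, adjusted p = 0.174) in MCD_EmKCs against Chow_EmKCs and 0.15 (SE 0.19, adjusted p = 0.654) in MCD_MoKCs against Chow_EmKCs. The call was lost without MCD_MoKCs 1, 2 and 3 (0.55, adjusted p = 0.139), without MCD_EmKCs 1 and 2 (0.56, adjusted p = 0.113), and in 5 of 19 fits that left out 1 library (MCD_EmKCs 2 or 5, or MCD_MoKCs 2, 3 or 5). Acetyl-CoA carboxylase (Acaca), the committed step of the pathway, and fatty acid synthase (Fasn) passed in no comparison. Fasn had medians of 879, 702.5 and 1020.1 normalised reads, and its difference between the MCD subsets was 0.63 (SE 0.31, adjusted p = 0.213).

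The 2 stearoyl-CoA desaturases, which make monounsaturated fatty acids, moved in opposite directions in MCD_MoKCs against Chow_EmKCs, where Scd1 fell and Scd2 rose. Scd1 (ENSMUSG00000037071, chromosome 19, 44394455 to 44407879) had a lowest, median and highest level of 1083, 1949 and 4804 normalised reads in Chow_EmKCs, 1269, 2105 and 8383 in MCD_EmKCs, and 211, 506 and 762 in MCD_MoKCs. Every MCD_MoKCs library was below every EmKC library, and Chow_EmKCs 1 and MCD_EmKCs 1 stood far above the rest of their groups. Scd1 fell by 2.37 (SE 0.40, limma adjusted p = 0.000332) against MCD_EmKCs, under every alternative tried, and the difference from Chow_EmKCs was -2.02 (SE 0.40, adjusted p = 0.000931). Its difference with diet in EmKCs was 0.34 (SE 0.42, adjusted p = 0.752).

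Scd2 (ENSMUSG00000025203, chromosome 19, 44293674 to 44306864) was at 317, 627 and 783 normalised reads (lowest, median, highest) in Chow_EmKCs. It was at 777, 1129 and 1364 in MCD_EmKCs and at 716, 1097 and 1683 in MCD_MoKCs. The lowest MCD_EmKCs library fell just short of the highest chow library, and both MCD groups covered a like range. Scd2 rose by 0.99 (SE 0.24, limma adjusted p = 0.017) in MCD_EmKCs and by 1.04 (SE 0.23, adjusted p = 0.00208) in MCD_MoKCs against Chow_EmKCs, and differed by 0.05 (SE 0.23, 95% interval -0.40 to 0.51, adjusted p = 0.926) between the MCD groups. The diet call in EmKCs was lost without Chow_EmKCs 1 or 5, up to an adjusted p of 0.0526, and without MCD_EmKCs 1 and 2 together (adjusted p = 0.0512). Scd1 and Scd2 are paralogues, and how reads that match both were assigned is not given in the sources used here.

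The polyunsaturated fatty acid desaturases Fads1 and Fads2 and the elongases Elovl1, Elovl5 and Elovl6 passed in no comparison. Elovl1 had medians of 2241, 2348 and 2595 normalised reads in Chow_EmKCs, MCD_EmKCs and MCD_MoKCs, with differences from 0.02 to 0.16 (SE 0.15). Elovl5, which extends polyunsaturated chains, had medians of 980.2, 813 and 1199.7 normalised reads and a difference of 0.47 (SE 0.23, limma adjusted p = 0.228) between the MCD subsets.

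In glycerolipid synthesis, the acyltransferase Agpat2 (ENSMUSG00000026922, chromosome 2, 26593057 to 26604417), which makes phosphatidic acid, changed and Gpam, Dgat1 and Dgat2 did not pass. Agpat2 was at 187, 245 and 293 normalised reads (lowest, median, highest) in Chow_EmKCs, 191, 421 and 707 in MCD_EmKCs and 479.8, 776 and 993 in MCD_MoKCs. The 7 MCD_MoKCs libraries lay above all 6 chow libraries, and MCD_EmKCs spread across both. Agpat2 rose by 1.57 (SE 0.29, limma adjusted p = 0.000255) in MCD_MoKCs against Chow_EmKCs. Its other differences were 0.88 (SE 0.29, adjusted p = 0.05005) between the MCD subsets, at the threshold, and 0.69 (SE 0.30, adjusted p = 0.246) with diet in EmKCs.

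**Figure D4:**
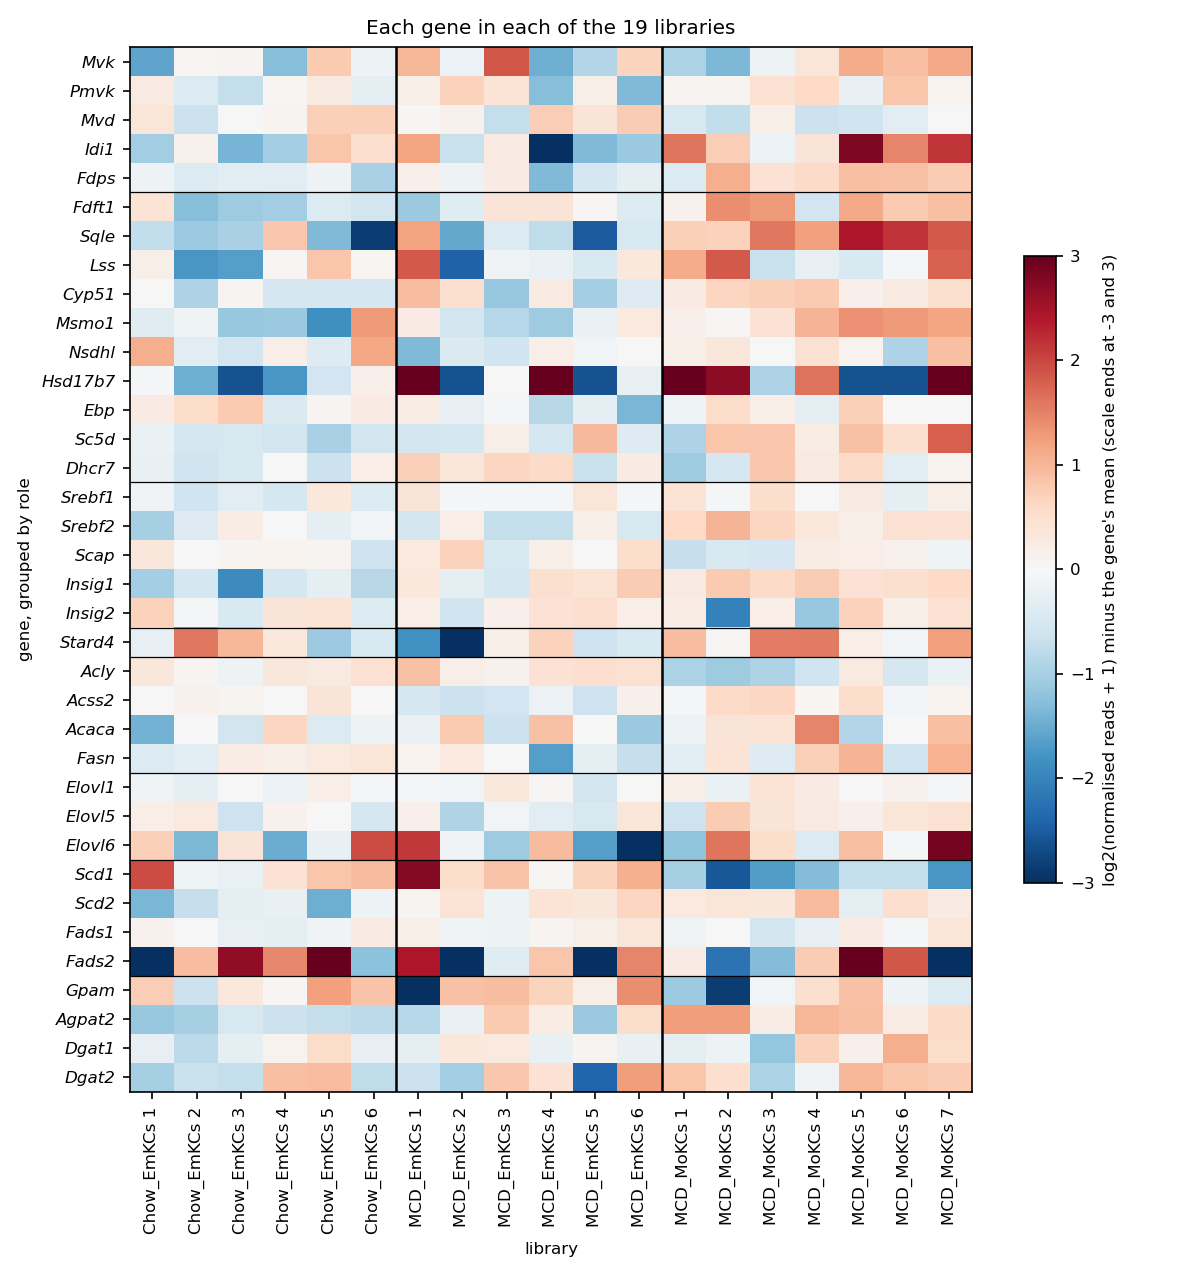
Each of the 36 genes (rows, by role) in each of the 19 libraries (columns, by group), as log2(normalised reads + 1) minus the gene's mean over all libraries, on a scale that ends at -3 and 3. Scd1 is blue in all 7 MCD_MoKCs libraries and Sqle is red in all 7, and low genes such as Hsd17b7, Fads2 and Elovl6 vary from library to library within every group.

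The labels number the libraries, and values within numbers up to 33 and from 37 were set beside the pooled ones. The set up to 33 held MCD_MoKCs 1 to 5 and replicates 1 to 3 of each EmKC group. The set from 37 held only MCD_MoKCs 6 and 7, with replicates 4 to 6 of each EmKC group. Within these sets limma called 0 and 1 of the 36 genes in MCD_EmKCs against Chow_EmKCs, 3 and 2 in MCD_MoKCs against MCD_EmKCs, and 4 and 3 in MCD_MoKCs against Chow_EmKCs, with fewer samples in each. The counts of all genes called in the same sets are given at the end, with the dependence on processing. The member counts are to be read beside them. Insig1 differed by 0.98 and 1.09 with diet in EmKCs in the 2 sets, and by 1.72 and 1.09 in MCD_MoKCs against Chow_EmKCs. In MCD_MoKCs against MCD_EmKCs, the differences were 1.57 and 3.25 for Sqle, 0.91 and 0.79 for Srebf2, -1.05 and -0.82 for Acly, and -2.82 and -1.81 for Scd1. For Acss2 they were 0.93 and 0.23, for Fdps 0.44 and 1.53, and for Idi1 0.81 and 4.37. Each of these differences had the same direction in both sets, and the sets were not tested against each other. Against MCD_EmKCs, Acly and Scd1 passed the threshold in both sets and Acss2 only up to 33. Sqle, Srebf2, Fdps and Idi1 passed in neither. Insig1 passed with diet only from 37, and in MCD_MoKCs against Chow_EmKCs in both. Insig1 between the MCD subsets, which was not called, differed by 0.735 and -0.0056.

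Exons of 7 of the 36 genes overlap, on the other strand, a gene that is also in the table, and whether the counting used strand is not given in the sources used here. Agpat2 overlaps Egfl7, which rose by 1.85 (SE 0.43, limma adjusted p = 0.00275) in MCD_MoKCs against Chow_EmKCs and by 1.66 (SE 0.43, adjusted p = 0.0115) against MCD_EmKCs. Acss2 overlaps Gss, which rose by 0.91 (SE 0.22, adjusted p = 0.00753) in MCD_MoKCs against MCD_EmKCs, and also Acss2os and Ggt7, which did not pass. Fdft1 overlaps Ctsb, a lysosomal protease gene at a mean of 156677 normalised reads against 136 for Fdft1. Ctsb differed by -0.22 (SE 0.10, adjusted p = 0.144) in MCD_MoKCs against Chow_EmKCs, where Fdft1 rose. Without strand, reads of such pairs cannot be told apart, and the values of Agpat2, Acss2 and Fdft1 are uncertain to that extent. Cyp51, Srebf1, Elovl1 and Lss overlap Akap9, Rai1, Cdc20 and 4930483K19Rik, none of which passed.

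Of 41 further genes of these pathways and their control, 37 were tested. With diet in EmKCs 0 were called higher and 1 lower (2.7%, where 1.58% of all genes were). In MCD_MoKCs against MCD_EmKCs 1 was higher (2.7%, where 5.64% were) and 2 were lower (5.41%, where 4.9% were). In MCD_MoKCs against Chow_EmKCs 0 were higher, where 8.68% were, and 4 lower (10.8%, where 8.08% were). These shares are near or below those of all genes. In each comparison with 0 called higher by limma, 2 of the 37 were higher at an unadjusted p under 0.05, and edgeR and DESeq2 called 0 higher. Of all 14875 genes, 1219 were higher at that unadjusted p with diet in EmKCs and 2066 in MCD_MoKCs against Chow_EmKCs. The liver X receptor gene Nr1h3 fell by 0.70 (SE 0.11, limma adjusted p = 0.000263) in MCD_EmKCs against Chow_EmKCs, from a median of 13834 to 8462 normalised reads, with no overlap between the groups. In MCD_MoKCs its median was 6481, lower than in Chow_EmKCs by 1.00 (SE 0.11, adjusted p = 1.31e-07), again with no overlap. Mid1ip1, an activator of acetyl-CoA carboxylase, had medians of 1521, 1001 and 593 normalised reads. Its difference with diet in EmKCs was -0.69 (SE 0.20, adjusted p = 0.0516), with overlapping ranges. Mid1ip1 fell by 0.73 (SE 0.20, adjusted p = 0.0159) in MCD_MoKCs against MCD_EmKCs and by 1.42 (SE 0.20, adjusted p = 5.5e-06) against Chow_EmKCs, and MCD_MoKCs overlapped neither EmKC group. Acsl5, which activates long-chain fatty acids, fell by 0.48 (SE 0.14, adjusted p = 0.0284) and 0.61 (SE 0.14, adjusted p = 0.00292) in the same comparisons. Me1, the cytosolic malic enzyme that makes NADPH, had medians of 34.5, 6.38 and 58.2 normalised reads and rose by 3.43 (SE 0.97, adjusted p = 0.0217) against MCD_EmKCs, a call that edgeR did not make (adjusted p = 0.0651). Without MCD_MoKCs 1, 2 and 3 the calls against MCD_EmKCs were lost for Mid1ip1 (-0.71, limma adjusted p = 0.0648), Acsl5 (-0.37, adjusted p = 0.16) and Me1 (3.03, adjusted p = 0.158). The Me1 call was also lost without MCD_EmKCs 1 and 2 (2.37, adjusted p = 0.164) and without either one alone (adjusted p = 0.0563 and 0.0561). The Acsl5 call against MCD_EmKCs was also lost without MCD_EmKCs 4 or 6, or MCD_MoKCs 1 or 3 (highest adjusted p = 0.0701). The sterol reductase gene Tm7sf2, named after its values were seen, was the remaining one of the 4 lower genes. It had medians of 317, 233 and 129 normalised reads, and 7 of 7 MCD_MoKCs libraries were below the chow median, with overlapping ranges. Tm7sf2 fell by 1.05 (SE 0.32, adjusted p = 0.0239) in MCD_MoKCs against Chow_EmKCs, a call lost without Chow_EmKCs 4 (adjusted p = 0.0762), without MCD_MoKCs 2 (adjusted p = 0.0528), and without MCD_MoKCs 1, 2 and 3 (-0.74, adjusted p = 0.195). The proteases that free SREBPs, Mbtps1 and Mbtps2, and the NF-Y genes Nfya, Nfyb and Nfyc passed in no comparison.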

How the data were processed

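The 19 RNA-seq libraries came from sorted Kupffer cells and were amplified by Smart-seq, per the labels' protocols. STAR, DESeq2 and the mm10 build are listed in the submitters' processing notes. Annotation, counter and strandedness are not given in those sources. The authors deposited 1 table of a normalised read signal. Each library's values were multiples of what 1 read is worth, and 100% of 303504 positive values gave whole reads within 0.001 read, which put the depth at 11642240 to 30983487 reads. Of 33919 identifiers, 29062 were matched to a symbol and 4857 were not. Groups came from the labels.

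All differences were fitted with limma 3.58.1 (R 4.3.3, trended and robust variances) on log2(value + 1), on 14875 genes with at least 10 in at least 6 libraries, in 1 model of the 3 groups. Tests were two-sided, and p-values were adjusted by the Benjamini-Hochberg method over all these genes, with a threshold of 0.05. The added 1 shrinks the ratio of any pair of values, most for low genes, and means of logs can differ from the log of means in either direction. The fit was tested on simulated data. Alternatives were edgeR 4.0.16 and DESeq2 1.42.0 on the recovered reads, other pseudocounts, filters and scalings, library number sets, and leaving libraries out. Levels per kilobase used all annotated exon bases of GRCm38. No replicate pair agreed within sampling noise.

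The members and gene lists were chosen with earlier results of these data known. Every called member and the 5 control genes were named, with the 3 uncalled members highest per kilobase, the ends of ranges, and up to 3 called genes of the further pathway list per comparison; other members were named for their role.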

Additional observations from a re-analysis of the deposited data

Results flagged for a closer look

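In 12 of 108 sets of values (36 genes in 3 groups), the highest or lowest library stood apart from the rest of its group by Dixon's test at the 95% level. For normally distributed values chance flags about 1 in 20. The test was run on values without a log, so that rate need not hold here. Chow_EmKCs 1 was high for Scd1, at 4804.1 normalised reads against 1082.7 to 2401.5 in the other chow libraries, and for Fdft1, at 155.35 against 47.169 to 86.456. Chow_EmKCs 4 was high for Sqle, at 172.5 against 12.842 to 58.381. Chow_EmKCs 5 was high for Acss2, at 1037.5 against 796.21 to 862.7. Chow_EmKCs 6 was low for Fdps, at 135.43 against 201.71 to 241.44, and high for Msmo1, at 493.84 against 56.248 to 187.44, and for Elovl6, at 82.89 against 6.7318 to 34.633. MCD_EmKCs 1 was high for Scd1, at 8383 against 1269.3 to 2611.9, for Sqle, at 227.69 against 16.556 to 73.849, and for Lss, at 469.6 against 23.56 to 161.23. MCD_EmKCs 5 was high for Sc5d, at 335.02 against 116.43 to 193.46. MCD_MoKCs 7 was high for Elovl6, at 157 against 8.3112 to 65.359. The cause of these values was not tested.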

How the results depend on the processing

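Over 39 results on named genes, 1117 of 1262 alternative fits gave the same direction and side of the threshold, 127 lost the call, 3 gained one and 15 turned the direction. The 39 include results that were not called, for which the same side means still not called. In MCD_MoKCs against MCD_EmKCs, leaving out a Chow_EmKCs library cannot move the difference and can move only its error and p-value. The total is therefore no measure of how well the calls hold. The falls of Acly and Scd1 against MCD_EmKCs and the rise of Insig1 in MCD_MoKCs against Chow_EmKCs held in every alternative. Leaving out 1 library gave 1 to 2 members called with diet in EmKCs (1 without Chow_EmKCs 1 or 5), 4 to 9 in MCD_MoKCs against MCD_EmKCs (4 without MCD_EmKCs 2 or 5, or MCD_MoKCs 2 or 5), and 1 to 3 further pathway genes with diet (3 without Chow_EmKCs 4, 2 without MCD_EmKCs 3). The sets of library numbers (up to 33, then from 37) have fewer samples and gave 0 and 1, 3 and 2, and 4 and 3 members in the 3 comparisons in the order of the text, 179 and 263, 870 and 565, and 1257 and 1288 genes of all, 0 further pathway genes with diet up to 33, and 1 and 0, and 2 and 2 in the other comparisons. Without MCD_MoKCs 1, 2 and 3, MCD_MoKCs against MCD_EmKCs had 0 further pathway genes and 1010 genes of all called. Without MCD_EmKCs 1 and 2, a choice made after seeing the data, diet in EmKCs had 1 member called (Insig1). With diet, 2 further pathway genes were called with DESeq2, with a filter of at least 50, and with library number set as covariate; the cause was not tested.

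Of genes not called, the direction turned for Srebf2 with diet (0.0285 up to 33, and -0.245 to 0.000489 leaving out 1 library), Insig2 with diet (-0.147 up to 33, and -0.0656 to 0.194 leaving out 1), and Srebf1 between the MCD subsets (-0.139 from 37, -0.0506 without MCD_MoKCs 1, 2 and 3, and -0.00592 to 0.124 leaving out 1). It also turned for Insig1 between the MCD subsets (-0.00561 from 37), and in MCD_MoKCs against Chow_EmKCs for Scap (0.134 from 37, 0.0984 without MCD_MoKCs 1, 2 and 3) and Insig2 (0.189 from 37, and -0.45 to 0.00357 leaving out 1).

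Deviations of same-numbered libraries of different groups had r from -0.0743 to 0.0759. The labels do not say what the replicate numbers mean, and whether they pair the samples was not settled. With the replicate number as a block, 2, 5 and 9 members were called in the 3 comparisons, against 2, 7 and 11 without the block, and 608, 1658 and 2474 genes of all, against 607, 1568 and 2493. In 11 of 36 cases a library correlated best, among the 6 or 7 of another group, with its own number. The low genes Idi1, Hsd17b7, Fads2 and Elovl6 were each listed at 0 in at least 1 library. Hsd17b7 was at 81.45 normalised reads in MCD_MoKCs 1, which had 11642240 reads. It was at 0 in MCD_MoKCs 5 and 6, which had 20794464 and 20447536 reads. The part of depth in these values was not tested.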
